A study of Mus musculus with 12 samples.

Results

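The S100 genes encode small calcium-binding proteins, and 10 of them were followed here in the mouse cochlea: S100a1, S100a4, S100a6, S100a8, S100a9, S100a10, S100a11, S100a13, S100a16 and S100b. They were chosen by gene symbol from the 23951 genes of a table of FPKM (fragments per kilobase of transcript, scaled to the mapped reads of the library, so a level per length). All 10 passed the filter on low values, a mean of at least 0.5 FPKM, together with 16277 of all genes. The study compared cochleae of mice without the phosphatase gene Dusp1 (Dusp1-/-, KO) with those of Dusp1 wild type (WT) mice at 5 and 8 months of age, all on a mixed 129S2/SvPas:C57BL/6 background. RNA of whole cochleae was sequenced in 12 libraries, 3 in each group, each named by an animal code: E7, F18 and F19 for KO at 5 months, E1, E3 and E4 for WT at 5 months, F5, F6 and F27 for KO at 8 months, and F1, F10 and F12 for WT at 8 months. Dusp1-/- is a genotype of the whole mouse, not of a chosen cell type, and no source used here explains the letters E and F.

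S100 proteins carry a pair of EF-hands, loops that bind calcium, and most work as dimers that open a hydrophobic face to a partner protein once calcium is bound. Some act inside cells on the cytoskeleton, membranes and enzymes. Others leave the cell and act as danger signals on receptors of innate immunity. Several members are typical of particular cell types, and several are found in many. S100a8 and S100a9 form calprotectin, the most abundant cytosolic protein of neutrophils, whereas S100b is a classical marker of glia and Schwann cells and S100a1 a protein of muscle. The deletion of Dusp1, which switches off stress-activated kinases, raises the question of how this family behaves in a cochlea prone to inflammation.

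No source used here gives read numbers, and the depth behind each value is unknown. A library's FPKM summed to between 501193 and 583700, of which the 10 leading genes held 9.12 to 10.77%. Dusp1 itself was at 61.9 to 81.5 FPKM in KO and 29.5 to 60.8 FPKM in WT at 5 months, and at 55.6 to 73.7 FPKM in KO and 38.3 to 43.0 FPKM in WT at 8 months. Transcripts of the targeted gene were thus higher in every library labelled KO than in every library labelled WT of the same age, a gene-level FPKM does not tell an intact from a disrupted allele, and KO and WT mean the genotype on the label throughout. The marker lists of hair cells and of supporting cells, 10 genes each, were all in the table and none was at 0 in all libraries. Xist, a transcript of females, was above 10 FPKM in 4 libraries: none of KO at 5 months, 1 of WT at 5 months (E4), 2 of KO at 8 months (F6 and F27) and 1 of WT at 8 months (F1).

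Of the 10 genes, 9 lie on chromosome 3 and S100b alone lies on chromosome 10 (75716581 to 75724064, + strand, mm9, as in the annotation deposited with the data). From S100a1 (90314956 to 90318252, - strand) to S100a9 (90496552 to 90499643, - strand) 7 of them share 184.7 kb, and S100a11 (93324418 to 93330210) and S100a10 (93359039 to 93368567), 28.8 kb apart, lie 2.82 Mb further on. In that annotation 9 of the 10 have 3 exons and S100a13 has 4, and the coding sequence of all 10 begins in exon 2, after a non-coding first exon. Their annotated transcripts are 392 to 1661 bases long. None of the 10 overlaps another annotated gene, and the libraries kept the strand of the RNA.

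The stretches before the starts of S100a8 and S100a9 are shown because the levels of these genes varied together across the libraries more closely than any other pair of the family, although their starts lie 26.6 kb apart and they are transcribed towards each other. They are the 250 bases before each start, 5′ to 3′ on the strand of the gene, from RefSeq on GRCm38.p6 (chr3:90668821-90669070, + strand, and chr3:90695722-90695971, - strand). Capitals mark matches, on either strand, to TTNCNNAA, a letter pattern of the myeloid C/EBP factors, and to TATAAA, the TATA box.
S100a8: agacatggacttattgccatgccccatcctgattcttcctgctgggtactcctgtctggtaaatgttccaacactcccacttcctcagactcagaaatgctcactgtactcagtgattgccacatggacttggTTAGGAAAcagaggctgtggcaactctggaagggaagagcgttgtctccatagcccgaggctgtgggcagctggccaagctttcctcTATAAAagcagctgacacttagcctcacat
S100a9: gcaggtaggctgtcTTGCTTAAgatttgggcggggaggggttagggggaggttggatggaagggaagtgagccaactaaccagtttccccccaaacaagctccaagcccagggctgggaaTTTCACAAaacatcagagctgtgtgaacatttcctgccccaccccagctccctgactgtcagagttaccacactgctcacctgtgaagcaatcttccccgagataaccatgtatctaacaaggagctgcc
The TATA box of S100a8 begins 30 bases before the start. TTNCNNAA occurs once in the S100a8 stretch, 117 bases before the start, and at 236 and 130 bases before the start of S100a9.

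Windows from 250 bases before to 50 bases after the start were found in RefSeq for 9 of the 10 genes, S100a10 being the one without. S100a16 had 2 windows and was counted where either matched, whereas the percentages are of single windows. TTNCNNAA was found in the windows of 2 of the 9, S100a8 and S100a9, and in 40.7% of 27025 windows of all genes. The other patterns, searched on both strands, were TATAAA in 3 of the 9 (14.2% of all windows), GAGGAA of the factor PU.1 in 4 (28.3%), TGANTCA of AP-1 in 2 (7.93%) and GGGCGG, the GC box, in 3 (35.9%). A GAGGAA match of S100a8, 36 bases before the start, ends where its TATA box begins. The window of S100a11 held both AP-1 matches and GC boxes, at 136 and 38 bases and at 64, 52 and 24 bases before the start. These matches are descriptions of letters and not binding sites.

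S100a1 and S100a13 are shown as the other close pair, since they are read away from each other from starts with only 104 bases between them. Those bases follow on the + strand, on which S100a13 is read (chr3:90514331-90514434, GRCm38.p6), with the 3 CG dinucleotides in capitals.
S100a1 to S100a13: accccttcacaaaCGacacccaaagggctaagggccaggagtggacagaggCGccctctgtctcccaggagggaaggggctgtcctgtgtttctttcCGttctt
None of the 5 patterns was found in the windows of either gene.

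The FPKM sum of the 10 genes made up 0.751 to 3.87% of a library. S100b ranked 10 to 24 and S100a1 17 to 39 among all genes of a library, S100a11 ranked 102 to 185, and the least abundant, S100a4, ranked 818 to 2523. S100a8 ranged from rank 2, in E7, to rank 3980, in E4.

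The order of the mean levels was steady for most members. In each group S100b stood above S100a1, S100a1 above S100a11 and S100a11 above S100a10, and S100a16 and S100a4 came last. The ranges of S100a1 and S100a11, and those of S100a11 and S100a10, did not overlap in any group, whereas S100b and S100a1 overlapped in KO at 8 months. S100a6 and S100a13 overlapped in every group and cannot be ordered. S100a8 and S100a9 had no fixed place. In both KO groups their means took places 1 and 2 of the 10, in WT at 5 months places 5 and 8 and in WT at 8 months places 3 and 4, but their ranges overlapped those of their neighbours each time.

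**Figure D1:**
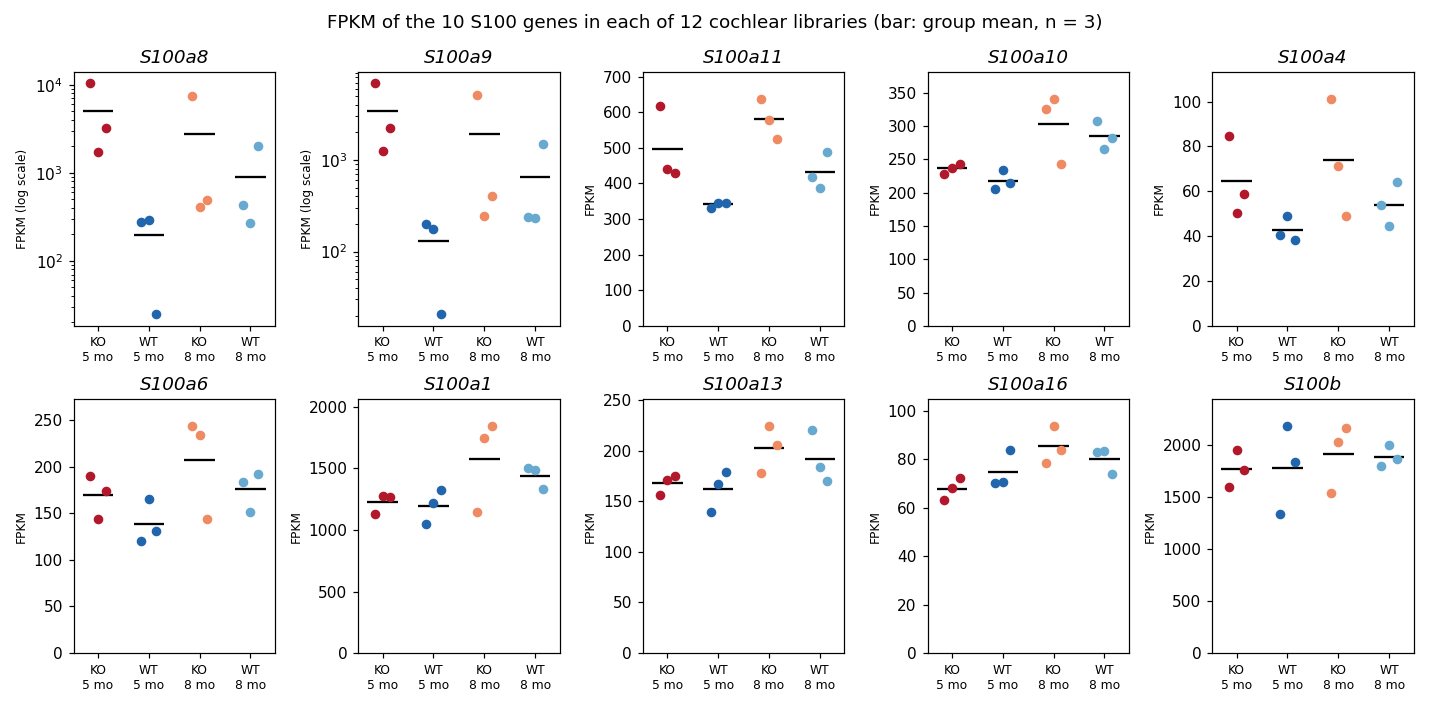
FPKM (y axis; log scale for S100a8 and S100a9, from 0 for the other 8) of the 10 S100 genes in each library, by group (x axis, KO and WT at 5 and 8 months; 3 points a group, bar at the mean). S100a8 and S100a9 span more than 2 decades, from 24.8 to 10376 FPKM for S100a8, while no other gene spanned more than the 2.64-fold of S100a4.

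Of all members, S100a8 and S100a9 differed most between the genotypes, and they did so at 5 months. S100a8 was at 10376, 1719 and 3229 FPKM in KO (E7, F18 and F19), against 274, 289 and 24.8 FPKM in WT (E1, E3 and E4). S100a9 was at 6860, 1245 and 2240 FPKM in KO, against 198, 175 and 20.7 FPKM in WT. For both genes every KO library lay above every WT library, E7 was the highest and E4 by far the lowest. E4 was also the only library of this age with Xist above 10 FPKM. On log2(FPKM + 0.5), the scale of every change below, the difference was 4.94 ± 1.3 for S100a8 and 4.89 ± 1.3 for S100a9 (limma estimate ± standard error). The 95% intervals ran from 1.97 to 7.9 and from 2.0 to 7.77. With p adjusted by Benjamini and Hochberg over all 16277 genes, limma called neither (adjusted p = 0.172 and 0.17, unadjusted p = 0.00402 and 0.00358). The exact two-sided permutation p was 0.1 for each, the smallest that 3 against 3 libraries can give. All WT libraries of 5 months carry the letter E, whereas of KO only E7 does, and at 8 months every library carries F. Genotype and whatever the letter stands for can therefore not be fully told apart at 5 months, for these or any other genes.

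At 8 months the groups overlapped. S100a8 was at 7426, 410 and 487 FPKM in KO (F5, F6 and F27), against 427, 271 and 1998 FPKM in WT (F1, F10 and F12). S100a9 was at 5097, 242 and 401 FPKM in KO, against 236, 233 and 1497 FPKM in WT. A single library of each genotype, F5 of KO and F12 of WT, stood far above the others, and F27 was at 1.8-fold the lowest WT library, F10, for S100a8. Xist was above 10 FPKM in F6, F27 and F1 and not in F5, F10 and F12. The genotypes were thus not matched for Xist at either age. Beyond a fit with the Xist level as a covariate, its part in these levels was not tested. The change was 0.89 ± 1.3 for S100a8 and 0.86 ± 1.3 for S100a9 (limma, adjusted p = 0.989 for both), and it was -0.46 and -0.48 without F5 and 1.74 and 1.75 without F12. The difference of the genotype change between the ages, -4.04 ± 1.9 and -4.02 ± 1.8, was not called either (limma, adjusted p = 0.876 for both, unadjusted p = 0.0575 and 0.0526).

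The RNA levels of the genes of the calprotectin chains kept a similar proportion throughout. S100a8 over S100a9 was 1.51, 1.38 and 1.44 in KO and 1.38, 1.65 and 1.2 in WT at 5 months, and 1.46, 1.69 and 1.21 in KO and 1.81, 1.16 and 1.33 in WT at 8 months. Over the 12 libraries this ratio differed by 1.56-fold at most, while S100a8 itself differed by 419-fold and S100a9 by 332-fold. Together the pair made up 80.9% of the family's FPKM in E7 and 74.6% in F5, and 1.08% in E4. In E7 they were 3.13% of the FPKM of the whole library.

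Neutrophil markers moved with both genes. Of a list of 18 such genes (granule proteins, proteases and receptors, without S100a8 and S100a9) 16 were in the table and none was at 0 in any library. Their summed FPKM were 1251 to 5985 in KO and 52.7 to 244 in WT at 5 months, and 270 to 4516 in KO and 217 to 1205 in WT at 8 months. At 5 months the change was above 0 for all 16, from 1.48 to 5.63 with a median of 4.2. Limma called 0 of the 16, all of which had an unadjusted p under 0.05 (18.1% of all genes). At 8 months the median was 0.76 with 0 called and 0 at an unadjusted p under 0.05 (5.17% of all genes). The ratio of S100a8 to the summed markers was 1.15 to 1.73 in 11 libraries and 0.47 in E4. The sum holds genes that stayed above 0 in every library, 1 of them at 13.3 FPKM or more, against a sum of 52.7 in E4. The lower ratio in E4 can therefore not be read as less S100a8 for each neutrophil. The markers' part in the differences of S100a8 and S100a9 was not tested. More neutrophils and more S100a8 RNA in each of them cannot be told apart in RNA of a whole organ. Nor can the maturation stage or the source of such cells be read from these sums.

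**Figure D2:**
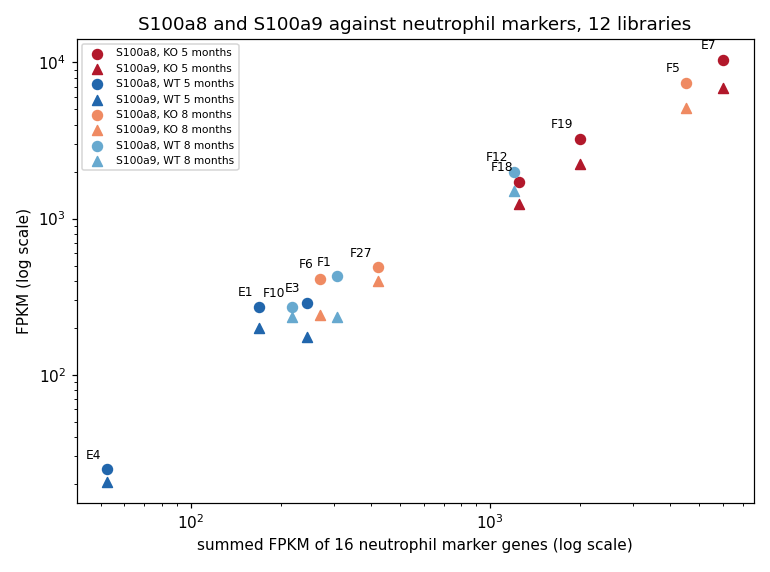
FPKM of S100a8 (circles) and S100a9 (triangles) on the y axis against the summed FPKM of 16 neutrophil marker genes on the x axis, both log scales, for the 12 libraries named by animal code at the S100a8 point. E7 and F5, both KO, lie at the upper right with sums of 5985 and 4516, E4 of WT lies at the lower left with 52.7, and F12 of WT lies beside F18 of KO.

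Other tested genes of the chromosome 3 cluster had smaller changes at 5 months. S100a7a, which starts 14.8 kb before S100a8, was at 1.63 to 4.07 FPKM in all libraries with a change of -0.062 ± 0.23 at 5 months, and S100a6, 56.2 kb before it, had a change of 0.29 ± 0.2. S100a4, 65.3 kb before it, had a change of 0.56 ± 0.26 without overlap, and S100a1, 154.7 kb before it, one of 0.036 ± 0.17. Loricrin, involucrin and other genes of the epidermal complex that lies between S100a9 and S100a11 reached 3.01 FPKM at most (Sprr1a), and 4 of the 12 in the table were at 0 in all libraries.

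**Figure D3:**
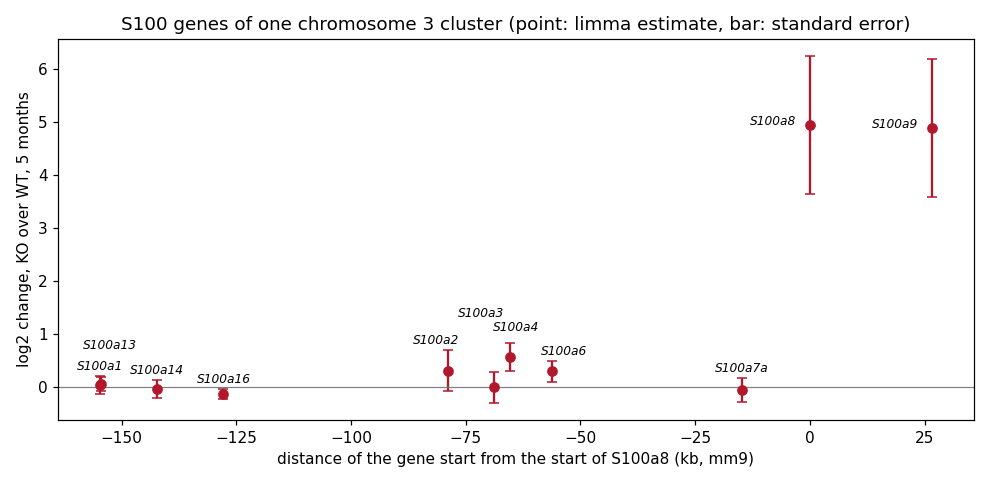
Log2 change of KO over WT at 5 months (y axis, limma estimate, bars are standard errors, n = 3 libraries a group) of the tested S100 genes of the chromosome 3 cluster, by the distance of their start from that of S100a8 (x axis, kb, mm9). S100a8 and S100a9 lie at 4.94 and 4.89, and the nearest other gene, S100a7a, at -0.062.

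S100a11, a dimeric partner of annexin A1 found in many cell types, was the one member with KO libraries above WT libraries at both ages. It was at 616, 440 and 430 FPKM in KO against 332, 345 and 346 FPKM in WT at 5 months, and at 637, 577 and 524 FPKM in KO against 419, 386 and 489 FPKM in WT at 8 months. The lowest KO value at 5 months was 1.24-fold the highest WT value, and the highest libraries of the KO groups were again E7 and F5. The change was 0.52 ± 0.14 at 5 months (limma, adjusted p = 0.174) and 0.43 ± 0.14 at 8 months (adjusted p = 0.913), and 0.47 ± 0.1 averaged over both ages (adjusted p = 0.117, 95% interval 0.25 to 0.7). The difference between the ages was -0.09 ± 0.2. Permuted within each age, the averaged difference had an exact p of 0.005, the smallest these libraries can give for it, unadjusted for the number of genes. Without E7 and F5, a choice made after the data were seen, the averaged change was 0.35 ± 0.073 (adjusted p = 0.266).

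Anxa1, the gene of annexin A1, also had every KO library above every WT library of its age (0.805% of all genes). It was at 153 to 280 FPKM in KO and 96.2 to 119 FPKM in WT at 5 months, and at 158 to 248 FPKM in KO and 126 to 137 FPKM in WT at 8 months. Its change was 0.89 ± 0.22 at 5 months (limma, adjusted p = 0.162) and 0.48 ± 0.22 at 8 months (adjusted p = 0.963). The other annexin genes followed here, Anxa2, Anxa5, Anxa6 and Anxa11, overlapped between the genotypes at both ages. Macrophage markers, 12 of 12 in the table, summed to 420 to 678 FPKM in KO and 328 to 387 FPKM in WT at 5 months, and to 366 to 649 FPKM in KO and 363 to 472 FPKM in WT at 8 months. Tyrobp, a signalling adaptor that other myeloid cells also use, was at 111 to 297 FPKM in KO and 71.7 to 74.7 FPKM in WT at 5 months (change 1.23 ± 0.44, limma, adjusted p = 0.221). It had the smallest unadjusted p of the list at that age, so leaving it out is a choice made from these data. Without it the sums of the other 11 overlapped at 5 months, at 287.0 to 381.0 FPKM in KO and 253.0 to 316.0 FPKM in WT. Cd68, of the same list, did not overlap at 5 months either (change 0.49 ± 0.21, limma, adjusted p = 0.258). Limma called 0 of the 12 at either age, with 2 at an unadjusted p under 0.05 at 5 months (18.1% of all genes) and 0 at 8 months (5.17%). The change was above 0 for 11 of the 12 at 5 months and 10 at 8 months, with medians of 0.19 and 0.2. The summed neutrophil markers were also highest in E7 and F5, at 5985 and 4516 FPKM. The part of either marker list in the levels of S100a11 and S100a4 was not tested.

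S100a4 binds non-muscle myosin and is abundant in motile and immune cells. Like S100a8, S100a9 and S100a11, it had every KO library above every WT library at 5 months, as did 11.3% of all genes. It was at 84.5, 50.2 and 58.9 FPKM in KO against 40.7, 49.1 and 38.3 FPKM in WT, though F18 of KO and E3 of WT were only 1.02-fold apart. At 8 months it was at 101, 71.2 and 49.1 FPKM in KO against 53.7, 44.4 and 63.9 FPKM in WT. The change was 0.56 ± 0.26 at 5 months and 0.4 ± 0.26 at 8 months (limma, adjusted p = 0.291 and 0.965), and the change was 0.35 without E7 at 5 months and 0.15 without F5 at 8 months, where it was 0.66 without F27. Myh9, the myosin heavy chain it binds, was at 50.4 to 78.7 FPKM in KO and 37.5 to 46.2 FPKM in WT at 5 months, a change of 0.56 ± 0.21 (limma, adjusted p = 0.226). At 8 months Myh9 overlapped, at 40.3 to 67.3 FPKM in KO and 37.2 to 50.2 FPKM in WT. Its change at that age was 0.17 ± 0.21 (limma, adjusted p = 0.982).

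S100a6 (calcyclin), a neighbour of S100a4 with a role in growth and stress responses, overlapped at both ages. It was at 189, 144 and 174 FPKM in KO against 120, 166 and 130 FPKM in WT at 5 months, and at 243, 233 and 144 FPKM in KO against 184, 152 and 192 FPKM in WT at 8 months. Its changes were 0.29 ± 0.2 and 0.2 ± 0.2 (limma, adjusted p = 0.479 and 0.979), and the change at 8 months ran from 0.069 without F5 to 0.44 without F27. S100a6 over S100a4 lay between 2.24 and 3.43 in all libraries and was lowest in E7 and F5. Cacybp and Sugt1, which bind S100a6, had changes of -0.063 ± 0.067 and -0.1 ± 0.078 at 5 months.

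S100a10, which does not bind calcium and pairs with annexin A2 at the plasma membrane, was at 229, 237 and 244 FPKM in KO against 205, 234 and 215 FPKM in WT at 5 months, and at 326, 341 and 243 FPKM in KO against 307, 266 and 282 FPKM in WT at 8 months. The genotypes overlapped at both ages, with changes of 0.12 ± 0.12 and 0.076 ± 0.12. The ratio of S100a10 to Anxa2 was 0.705 to 0.931 over the 12 libraries. Anxa2 itself had changes of 0.032 ± 0.1 and 0.12 ± 0.1.

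The members best known from glia and muscle overlapped between the genotypes at both ages. S100b was at 1598, 1954 and 1759 FPKM in KO against 1334, 2180 and 1834 FPKM in WT at 5 months, and at 1543, 2033 and 2162 FPKM in KO against 1801, 2003 and 1862 FPKM in WT at 8 months. The KO values lay inside the range of WT at 5 months, and the change was 0.014 ± 0.18 (95% interval -0.4 to 0.42) at 5 months and 0.0043 ± 0.18 (-0.41 to 0.41) at 8 months. A difference of up to about 1.3-fold in either direction is therefore compatible with these libraries. Markers of Schwann cells and peripheral glia, all 10 in the table, were also summed. The sums were 1534 to 2213 FPKM in KO and 1783 to 2341 FPKM in WT at 5 months. At 8 months they were 1603 to 1921 FPKM in KO and 1674 to 1881 FPKM in WT. Of the 10, 1 had a change above 0 at 5 months and 4 at 8 months, with medians of -0.099 and -0.02. Limma called 0 of the 10 at either age, with 0 at an unadjusted p under 0.05 (18.1 and 5.17% of all genes). The 9 markers of central glia summed to 94.9 to 136 FPKM in KO and 113 to 196 FPKM in WT at 5 months. None of these 9 had a change above 0 at either age, with medians of -0.54 at 5 months and -0.24 at 8 months. Limma called 0 of the 9, with 4 at an unadjusted p under 0.05 at 5 months (18.1% of all genes) and 1 at 8 months (5.17%). The part of either list in the level of S100b was not tested.

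S100a1, known for its regulation of calcium release in muscle, was at 1129, 1274 and 1270 FPKM in KO against 1050, 1218 and 1325 FPKM in WT at 5 months, and at 1148, 1746 and 1842 FPKM in KO against 1501, 1490 and 1336 FPKM in WT at 8 months. F5 was below, and F6 and F27 above, all 3 WT libraries of their age. The changes were 0.036 ± 0.17 and 0.1 ± 0.17. Skeletal muscle markers, 11 of 11 in the table, summed to 267 to 1421 FPKM in KO and 410 to 1909 FPKM in WT at 5 months, and to 389 to 606 FPKM in KO and 299 to 348 FPKM in WT at 8 months, and their part in the level of S100a1 was not tested. Pvalb, a gene of that list picked out after its values were seen, is also a gene of cochlear neurons and hair cells, and without it the other 10 summed to 10.7 to 1022 FPKM in KO and 25.6 to 1400 FPKM in WT at 5 months and to 29.4 to 234.0 FPKM in KO and 12.3 to 51.7 FPKM in WT at 8 months. Limma called 0 of the 10 tested at either age, and their median change was 0.15 at 5 months and 2.0 at 8 months. Cochlear supporting cell markers summed to 805 to 945 FPKM in KO and 819 to 1042 FPKM in WT at 5 months, and to 807 to 1043 FPKM and 836 to 1118 FPKM at 8 months. Hair cell markers summed to 85.3 to 103 FPKM in KO and 85.0 to 114 FPKM in WT at 5 months. Which cells of the cochlea carry S100a1 cannot be read from RNA of a whole organ. The divergent neighbour of S100a1, S100a13, which takes part in the release of FGF1 and interleukin 1 alpha from cells, was at 157, 171 and 175 FPKM in KO against 139, 167 and 179 FPKM in WT at 5 months, and at 178, 224 and 206 FPKM in KO against 221, 184 and 170 FPKM in WT at 8 months, with changes of 0.057 ± 0.13 and 0.085 ± 0.13. S100a1 stayed at 6.43 to 8.95 times the FPKM of S100a13.

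Fgf1, whose protein S100a13 helps to release, was at 80.3 to 90.3 FPKM in KO and 98.2 to 113 FPKM in WT at 5 months, a change of -0.33 ± 0.086 without overlap (limma, adjusted p = 0.164), and at 86.3 to 104 FPKM in KO and 92.2 to 98.7 FPKM in WT at 8 months, a change of 0.046 ± 0.086. Il1a was low, at 1.03 to 2.06 FPKM in KO and 0.219 to 0.663 FPKM in WT at 5 months, a change of 1.04 ± 0.31 (adjusted p = 0.189), and its groups overlapped at 8 months.

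S100a16, a broadly expressed member, was the one gene with a change below 0 at 5 months. It was at 63.3, 68.4 and 72.1 FPKM in KO against 70.2, 70.6 and 83.7 FPKM in WT, a change of -0.14 ± 0.093 (limma, adjusted p = 0.468). At 8 months it was at 78.6, 93.6 and 84.0 FPKM in KO against 83.1, 83.5 and 73.8 FPKM in WT, a change of 0.09 ± 0.093. The groups overlapped at both ages.

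Counted together, limma called 0 of the 10 members at an adjusted p under 0.05 at 5 months, where it called 0.0676% of all genes, and 3 of the 10 (S100a8, S100a9 and S100a11) had an unadjusted p under 0.05, against 18.1% of all genes. At 5 months the KO libraries lay above all WT libraries for 4 of the 10, the 3 named and S100a4, and for 11.3% of all genes. At 8 months 0 of 10 were called (0.0123% of all genes), S100a11 alone had an unadjusted p under 0.05 (5.17% of all genes) and it alone did not overlap, with KO above WT (4.1% of all genes). KO lay above WT at both ages for S100a11 and for 0.805% of all genes. Averaged over the ages, 0 of 10 were called (0.0799%) and 4 had an unadjusted p under 0.05 (17.4%), those 3 and S100a4. The difference between the ages was called for 0 of 10 (0.00614%), with 0 at an unadjusted p under 0.05. The median change of the members was 0.2 at 5 months and 0.15 at 8 months, against -0.027 and -0.004 over all genes tested, and 9 and 10 of the 10 were above 0, against 44.3 and 48.3% of all genes.

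**Figure D4:**
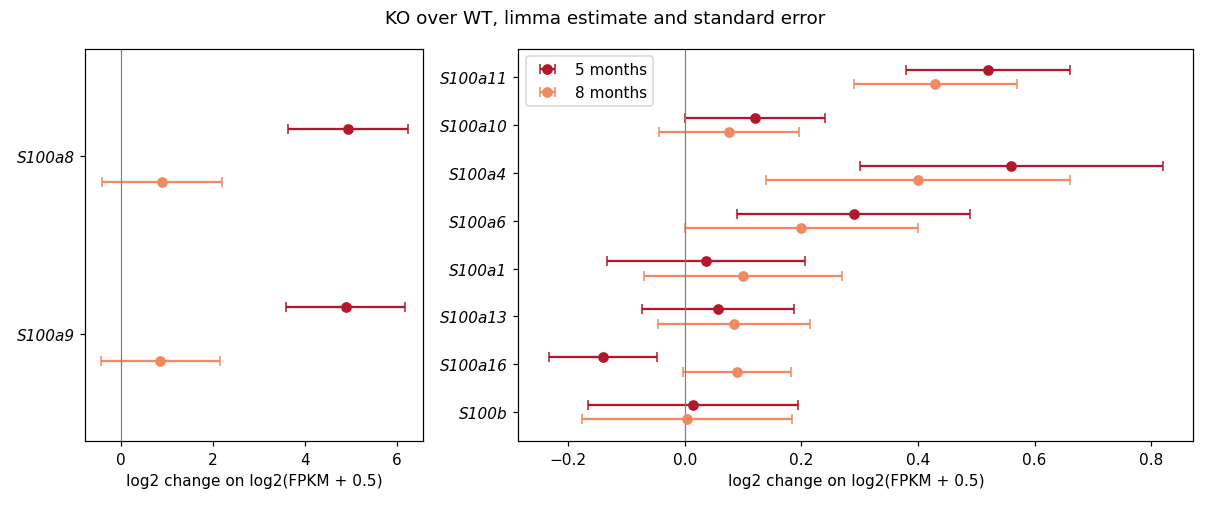
Log2 change of KO over WT on log2(FPKM + 0.5) (x axis; points are limma estimates, bars standard errors, n = 3 libraries a group) for each S100 gene (y axis) at 5 and 8 months, with S100a8 and S100a9 on a wider axis at the left. S100a11 lies at 0.52 and 0.43, and S100b at 0.014 and 0.0043.

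The same libraries were compared between the ages within each genotype. In WT all 3 libraries of 5 months carry the letter E and all 3 of 8 months the letter F, so age and whatever the letter stands for cannot be told apart in WT. Limma called 0 of 10 members in KO (0.0% of all genes) and 0 of 10 in WT (0.0123%). An unadjusted p under 0.05 was reached by 2 in KO, S100a10 and S100a16 (12.6% of all genes), and by 2 in WT, S100a10 and S100a11 (7.82%).

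S100a10 was higher at 8 months in both genotypes. Its change was 0.34 ± 0.12 in KO, where 243 FPKM in F27 at 8 months lay just under 244 FPKM in F19 at 5 months, and 0.39 ± 0.12 in WT, where the ages did not overlap (limma, adjusted p = 0.342 and 0.631). S100a16 was higher at 8 months in KO without overlap, by 0.33 ± 0.093 (adjusted p = 0.302), and by 0.1 ± 0.093 with overlap in WT. S100a13 did not overlap in KO either. In WT, S100a1, S100a9, S100a10 and S100a11 did not overlap between the ages, each higher at 8 months. That is 2 of 10 in KO, against 11.1% of all genes, and 4 of 10 in WT, against 10.3% of all genes.

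S100a8 had age changes of opposite sign in the genotypes, -1.76 ± 1.3 in KO and 2.28 ± 1.3 in WT, with overlap in both and adjusted p = 0.585 and 0.639 by limma. The median change of the 10 members was 0.25 in KO and 0.33 in WT, against 0.015 and 0.018 over all genes. S100b had small age changes of 0.1 ± 0.18 in KO and 0.11 ± 0.18 in WT.

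**Figure D5:**
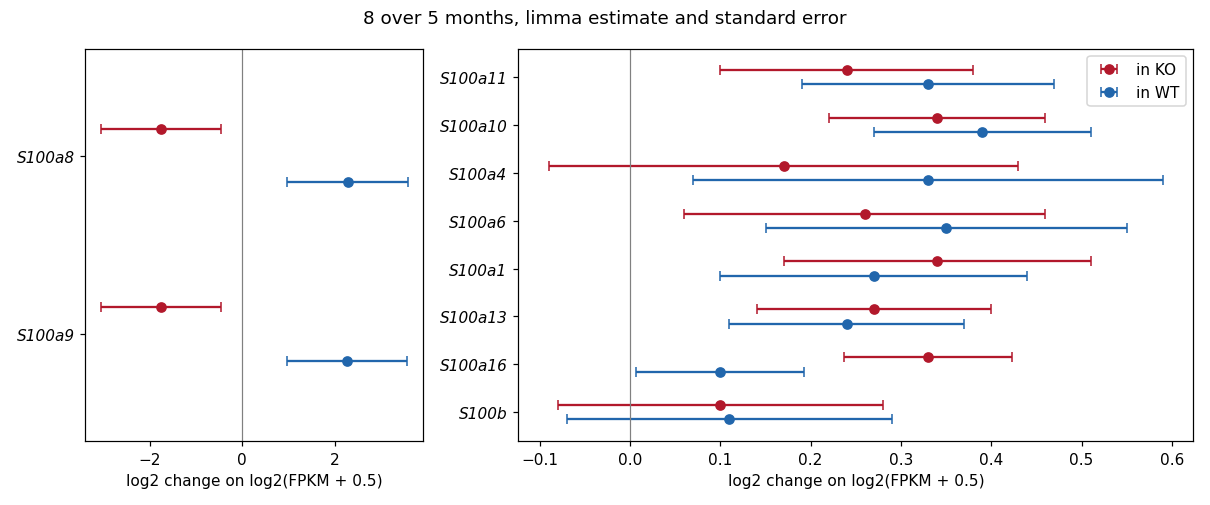
Log2 change of 8 over 5 months on log2(FPKM + 0.5) (x axis; points are limma estimates, bars standard errors, n = 3 libraries a group) for each S100 gene (y axis) in KO and in WT, with S100a8 and S100a9 on a wider axis at the left. S100a8 lies at -1.76 in KO and 2.28 in WT, and S100a10 at 0.34 and 0.39.

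The genes whose log2(FPKM + 0.5) followed each member most closely over the 12 libraries were listed by Pearson correlation, as a description of points that share libraries, groups and cell mixture. For S100a8 they were S100a9 (r = 0.997), 1100001G20Rik (0.995) and Ngp, the neutrophilic granule protein (0.994). For S100a9 they were S100a8 (0.997), 1100001G20Rik (0.996) and Camp, the antimicrobial cathelicidin of neutrophil granules (0.993). Ngp ran from 3.05 to 1745 FPKM and Camp from 3.56 to 1570 FPKM. No other member was as close to any gene.

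For S100a11 the closest were Mxd3 (0.976), Ifi47, an interferon-induced GTPase (0.973), and H2afj (0.972). S100a4 was followed by Hn1 (0.956), Sh3bgrl3 (0.952) and Rad9a (0.951). S100a6 was followed by Snrpe (0.929), Tomm22 (0.924) and Prdx2 (0.906), and S100a10 by Ppia (0.953), Rps29 (0.937) and Akip1 (0.937). S100a1 was followed by Tm2d3 (0.97), Ephx1 (0.968) and Fth1, the ferritin heavy chain (0.918), and S100a13 by 0610031J06Rik (0.963), Tm2d3 (0.923) and Wdr61 (0.916), so that the divergent pair shares Tm2d3. S100a16 was followed by Tnfsf12 (0.949), Manbal (0.932) and Commd9 (0.931), and S100b by Gatsl3 (0.94), Abhd12 (0.888) and BC024139 (0.863). Within the family the closest pairs after S100a8 and S100a9 were S100a4 with S100a6 (0.895), S100a4 with S100a11 (0.89) and S100a1 with S100a13 (0.875), over 12 libraries each.

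The other 7 S100 genes of the table were at 4.07 FPKM or below. S100a14 was at 1.32 to 3.03 FPKM, S100a7a at 1.63 to 4.07, S100a3 at 0.806 to 2.58 and S100a2 at 0 to 1.05, and these 4 were tested. S100a5, S100g and S100z were listed at 0 in 10 libraries each and reached 0.454, 0.354 and 0.49 FPKM. Limma called 0 of the 4 tested in KO over WT at 5 months (0.0676% of all genes) and 0 at 8 months (0.0123%). None had an unadjusted p under 0.05 at 5 months (18.1% of all genes), and S100a14 alone did at 8 months (5.17%). Its change at 8 months was -0.38 ± 0.17 (limma, adjusted p = 0.963).

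The receptors through which extracellular S100 proteins act were present at very different levels. Bsg, a receptor of S100a9, was at 362 to 487 FPKM, Alcam at 32.3 to 46.8 and Cd36 at 6.84 to 143 FPKM. Tlr4 with its co-receptor Ly96 was at 4.46 to 6.42 and 9.47 to 15.8 FPKM, Tlr2 at 4.45 to 7.83 and Ager, the receptor RAGE, at 1.72 to 3.18 FPKM. Of the 7, limma called 0 in KO over WT at either age, with 0 at an unadjusted p under 0.05, and their median changes were 0.018 and -0.11. Of 12 partner genes, limma called 0 at either age. At 5 months 3 (Anxa1, Il1a and Myh9) had an unadjusted p under 0.05 with a change above 0 and 1 (Fgf1) with a change below 0, and the median was 0.072. Other EF-hand genes of the cochlea, 17 of 19 tested (calbindins, parvalbumins and calpains among them), had a median change of -0.13 at 5 months and 0.049 at 8 months, again with 0 called. At 5 months 1 of the 17 had an unadjusted p under 0.05 above 0 and 3 below. Of all genes, 18.1% had an unadjusted p under 0.05 at that age in either direction, the share to set beside the counts of the partner and EF-hand lists.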

How the data were processed

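RNA-seq of mouse cochleae was available for 12 libraries (3 for each genotype and age). Stranded polyA libraries were sequenced by the authors, and FastQC 0.10.1, TopHat2 2.0.10, Bowtie 1.0.0, SAMtools 0.1.19, Cufflinks 2.2.1 and build mm9 are named in the submitters' processing notes. The deposited table holds FPKM as the authors computed them for every gene in each library. In 55.30% of its values the decimal point had been lost. It was restored here for each gene and group as the only placing whose mean equals the group FPKM that the authors' Cuffdiff tables give (other values of these tables, the fold changes, p-values and the enrichment reports, were not used), within a relative tolerance of 2e-05. This left 23949 of 23951 genes.

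The 16277 genes averaging 0.5 FPKM or more were taken as log2(FPKM + 0.5), which understates changes of low genes, into a limma 3.58.1 fit (R 4.3.3) of the 4 groups with a variance trend. The p-values were adjusted over those genes (Benjamini-Hochberg) and called under 0.05. Members also had an exact two-sided permutation test. Replicates carry separate animal codes, and the study used mice of both sexes together. Tables and figures were made in Python 3.11.15 with SciPy 1.17.1 and Matplotlib 3.10.9, and the restoring and the fit were tested on simulated data. All members are named. The other S100 genes, partners and receptors could each be named, as could the 2 genes of any other list with the smallest unadjusted p at 5 months and the 3 genes most alike to each member. The members and lists were chosen with earlier results of these data known. Alternatives were pseudocounts of 0.1 and 1, filters at a mean above 0 and of 1 FPKM, scaling by quantiles or by median ratios, array weights, a fit without the variance trend or on the compared groups only, the Xist level as a covariate, each library left out and, added after the data were seen, E7 and F5 left out together.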

Additional observations from a re-analysis of the deposited data

How the results depend on the processing

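No paired analysis was possible because the labels give libraries animal codes that no groups share, and the replicate numbers used here only name libraries in accession order. Under every alternative run, limma called 0 of the 10 members in each of the 6 comparisons (the compared groups alone could not be fitted for the averaged comparison and the difference between ages, which need all groups), and of 680 values of single members under an alternative (30 values, KO over WT at either age and averaged) 645 kept their direction and 35 reversed it. S100a8 at 5 months ran from 3.78 without E4 to 5.54 without E3, was 4.22 without E7 and 4.0 with the Xist level as a covariate, and S100a11 at 5 months ran from 0.35 without E7 to 0.61 without F19. Reversals of S100a8 and S100a9 came at 8 months only: with one library left out their changes ran from -0.46 and -0.48 without F5 to 1.74 and 1.75 without F12, and they were -0.46 and -0.48 without E7 and F5. The remaining reversals were of changes near 0, and their cause was not tested. Quantile scaling, which moved the median of all genes at 5 months to -0.0543, gave S100a1 -0.26 at 5 months, -0.031 at 8 months and -0.14 averaged, S100b -0.24, -0.13 and -0.18, and at 5 months S100a10 -0.0006 and S100a13 -0.025. Array weights gave S100a1 -0.011 at 5 months and S100b -0.1 at 5 months and -0.041 averaged, and the Xist covariate gave S100b -0.04 at 8 months. With each library left out in turn, S100a1 ran from -0.055 to 0.11 at 5 months and from -0.025 to 0.32 at 8 months, S100a10 from -0.015 to 0.23 at 8 months, S100a13 from -0.047 to 0.13 at 5 months, S100a16 averaged from -0.057 to 0.018 (0.031 without E7 and F5), and S100b from -0.18 to 0.17 at 5 months, from -0.092 to 0.15 at 8 months and from -0.088 to 0.089 averaged. Single library depth is unknown, so no limit of detection can be given for the S100 genes listed at 0.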
